A study of Mus musculus with 6 samples.

Results

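Interferon-stimulated genes are the transcripts that cells switch on when interferon binds its receptors. A list of 33 such mouse genes was matched by gene symbol to the deposited count and FPKM tables of a liver RNA sequencing series. Of these, 31 had a row among the 22599 genes of the tables, and all 31 were among the 13205 genes with enough counts to be tested. Mx1 and Mx2 were not analysed here. The list holds 25 type I responders (20 antiviral effectors and regulators, 2 nucleic acid sensors and 3 transcription factors), 6 GTPases typical of the interferon-gamma response, and 2 genes induced by both kinds of interferon, Irf1 and Tap1.

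The study compared livers of NcoR1fl/fl mice, whose Ncor1 alleles are floxed, with livers of NcoR1ΔHep mice, named for a hepatocyte deletion of the nuclear receptor corepressor NcoR1. There were 3 libraries of each, called flox 1 to 3 (genotype label WT) and NcoR1ΔHep 1 to 3 (genotype label knockdown NcoR1). All 6 titles give 0 h, and the treatment label of all 6 names liver ischemia-reperfusion, so whether these livers underwent surgery cannot be read from the labels. The labels name no strain, age or sex and no promoter for the recombinase, and they leave unsaid whether the 3 libraries of a group are 3 mice. Deletion by cell type cannot be read from whole-liver RNA.

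Type I interferons bind the receptor pair Ifnar1 and Ifnar2. The kinases Jak1 and Tyk2 then switch on a complex that contains Stat2 and Irf9 and binds a DNA element called ISRE in front of genes such as Ifit1 and Isg15. Interferon-gamma binds Ifngr1 and Ifngr2, and signalling through Jak1 and Jak2 acts on a different element, GAS. Targets of that branch include Irf1, immunity-related GTPases such as Irgm1 and guanylate-binding proteins such as Gbp2, which attack the vacuoles of intracellular parasites and bacteria. In the liver, hepatocytes, Kupffer cells and endothelial cells can all respond to both kinds of interferon, and many of these genes keep a low level of transcription without infection.

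The libraries held 36975231 to 38470468 counts, with 16620 to 17770 genes at 1 count or more. Ncor1 itself was at 6.78, 6.70 and 7.72 FPKM in flox 1 to 3 and at 5.34, 6.63 and 4.93 FPKM in NcoR1ΔHep 1 to 3, with a log2 fold change of -0.31 (SE 0.21, edgeR adjusted p = 0.931). The group values did not overlap in FPKM, with NcoR1ΔHep lower, as was so for 4.95% of all tested genes. The difference passed no test, and a gene total does not show the loss of single exons. NcoR1ΔHep 1 stood apart in sex-linked transcripts: Xist had 17138 counts there and 6 to 18 in the others, and Y-linked genes summed to 20 counts against 4174 to 10122. These counts read as male in the others and as female in NcoR1ΔHep 1, which is thus another mouse than NcoR1ΔHep 2 and 3. Sex was uneven between the genotypes and cannot be told apart from other traits of NcoR1ΔHep 1. Most fold changes of named genes and the medians of the lists are therefore also given without that library. Mitochondrially encoded genes took 4.50% to 10.4% of the counts, most in NcoR1ΔHep 3 and flox 2 (8.80%). Hepatocyte markers summed to 52900 to 59500 FPKM in flox and 55000 to 59800 FPKM in NcoR1ΔHep, and all 6 of these markers had counts in every library.

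The promoters of the members were examined first, to see which sequence elements the classes share. RefSeq promoters of build GRCm38.p6, spanning 250 bases before each start site and 300 bases in all, were found for 25 of the 33 members. Ifi27, Iigp1, Oas2, Rtp4, Usp18, Zbp1, Mx1 and Mx2 had none in that table. The ISRE core searched was GAAANNGAA followed by one more A, on either strand, and the GAS core was TTCNNNGAA, which reads the same on both strands. Stretches of 120 bases are shown for 4 type I responders, for Irf1 and for 2 GTPases, because they hold the elements of the 2 signalling branches. Each runs from 140 to 21 bases before the start site on the strand of the gene, 5′ to 3′, and capitals mark ISRE and GAS matches.
Rsad2, chr12:26456473-26456592, minus strand: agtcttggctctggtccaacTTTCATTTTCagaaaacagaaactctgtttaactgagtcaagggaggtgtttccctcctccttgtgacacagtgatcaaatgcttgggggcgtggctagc
Ifit1, chr19:34640749-34640868, plus strand: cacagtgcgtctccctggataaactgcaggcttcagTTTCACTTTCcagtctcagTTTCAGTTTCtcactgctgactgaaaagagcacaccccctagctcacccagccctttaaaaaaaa
Isg15, chr4:156200839-156200958, minus strand: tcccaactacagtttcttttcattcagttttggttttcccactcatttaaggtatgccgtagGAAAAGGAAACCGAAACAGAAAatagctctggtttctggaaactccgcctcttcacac
Bst2, chr8:71537493-71537612, minus strand: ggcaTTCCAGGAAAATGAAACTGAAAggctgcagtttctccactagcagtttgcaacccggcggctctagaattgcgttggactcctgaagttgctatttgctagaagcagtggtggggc
Irf1, chr11:53769874-53769993, plus strand: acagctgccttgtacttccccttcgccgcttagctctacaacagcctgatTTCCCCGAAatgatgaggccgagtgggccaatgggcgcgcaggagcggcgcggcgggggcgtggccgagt
Gbp7, chr3:142530196-142530315, plus strand: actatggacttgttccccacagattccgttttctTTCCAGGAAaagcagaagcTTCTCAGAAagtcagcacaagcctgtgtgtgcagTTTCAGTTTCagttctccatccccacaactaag
Igtp, chr11:58199416-58199535, plus strand: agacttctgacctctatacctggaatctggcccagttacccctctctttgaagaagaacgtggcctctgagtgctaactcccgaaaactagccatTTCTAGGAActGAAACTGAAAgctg

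In these stretches Rsad2, Ifit1 and Isg15 carry ISRE matches only and Irf1 a GAS match only, while both GTPases carry both. With the start-site base counted as 0, the Isg15 matches overlap one another in a run from -78 to -57. Ifit1 has 2 separate matches, at -104 to -95 and -85 to -76, both on the opposite strand. The single Rsad2 match lies at -120 to -111. In Bst2 the GAS match at -136 to -128 overlaps the first of 2 ISRE matches, at -130 to -121. Gbp7 has 2 GAS matches, at -106 to -98 and -87 to -79, upstream of its ISRE match at -53 to -44. In Igtp the GAS match at -45 to -37 and the ISRE match at -34 to -25 lie next to each other.

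Over all classes, an ISRE match was present in 16 of 25 member promoters (64.0%), against 1079 of 27025 genes (3.99%) in the whole table. It was found in 11 of 18 type I responders (61.1%), in 5 of 5 GTPases and in neither Irf1 nor Tap1. The shorter core without the final A was in 17 of 25 members (68.0%) and in 9.76% of all genes. A GAS match was present in 6 of 25 members (24.0%) and in 9.55% of all genes. It was found in 3 of 18 type I responders (Bst2, Oas1a and Ifit2), in 2 of 5 GTPases (Gbp7 and Igtp) and in Irf1. A match describes letters in this window and does not show that a factor binds there.

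**Figure D1:**
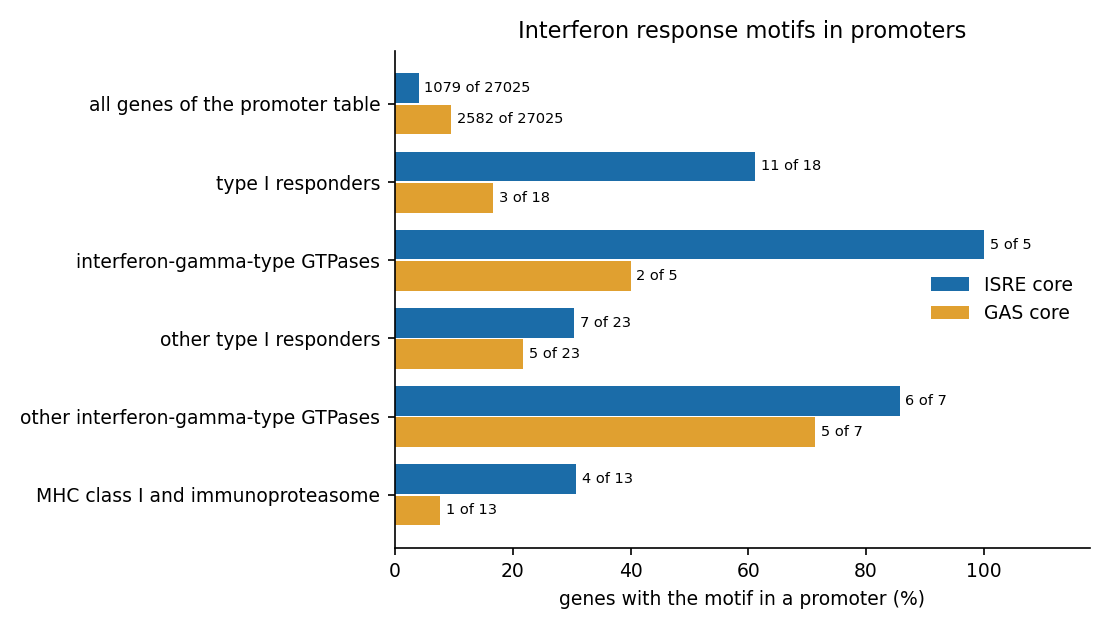
Share of genes (horizontal axis, %) with an ISRE core or a GAS core in a RefSeq promoter, by gene list, with the counts written beside each bar. The ISRE core is in 11 of 18 type I responders and 5 of 5 interferon-gamma-type GTPases, against 1079 of 27025 genes in the table, and the GAS core is in 3 of 18 and 2 of 5.

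No interferon-stimulated gene passed the test between genotypes, and members of both classes lay on either side of 0. With edgeR's quasi-likelihood test and adjustment over all 13205 genes, 0 of 31 members had an adjusted p under 0.05, and their adjusted p ran from 0.931 to 0.993. The background was the same, with 0 of 13205 genes called (0.0%). At an unadjusted p under 0.05 edgeR gave 0 of 31 members, against 443 genes (3.35%) overall. DESeq2 called 0 of 31 members and 5 of 20289 genes (0.0246%). At an unadjusted DESeq2 p under 0.05 it was 1 of 31 members, Rsad2, against 612 of all 22599 genes, those without counts included. The 95% intervals of the members were 0.87 to 4.05 log2 units wide, so changes of moderate size could not be told from 0. In these bulk livers, fewer responding cells and less RNA per cell cannot be told apart.

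In direction the list split almost evenly. The log2 fold change, NcoR1ΔHep over flox, was above 0 in 17 members and below 0 in 14, where 46.5% of all tested genes were below 0. Its median was 0.03 over the members and 0.03 over all genes. Among the 23 type I responders, 13 were above 0 and 10 below, with a median of 0.03 and a range of -1.37 to 1.14. The 6 GTPases had 3 above and 3 below, with a median of 0.07 and a range of -0.72 to 0.80. Without NcoR1ΔHep 1 the medians were -0.02 and 0.11. With total counts alone as the scaling they were -0.03 and 0.03. The GTPase median moved with single libraries: it was -0.39 without NcoR1ΔHep 3, -0.21 without flox 3, 0.36 without flox 2 and 0.32 without NcoR1ΔHep 2.

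**Figure D2:**
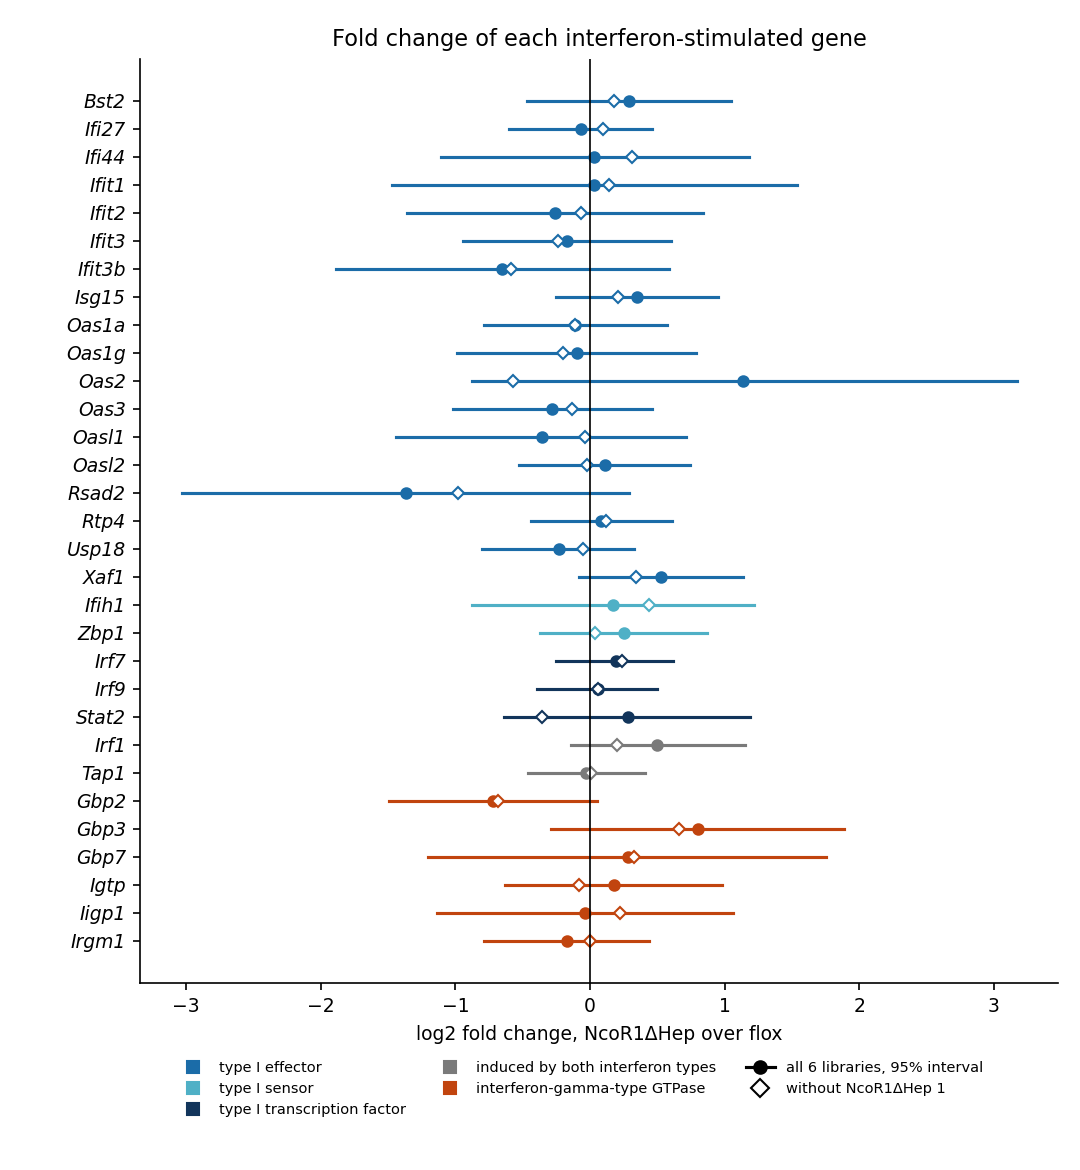
Fitted log2 fold change (horizontal axis, NcoR1ΔHep over flox) of each of the 31 members, with 95% intervals from all 6 libraries as bars and the value without NcoR1ΔHep 1 as an open diamond. All 31 intervals include 0, and the points run from -1.37 for Rsad2 to 1.14 for Oas2.

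Of the 3 transcription factors of the type I response, Irf9 had the lowest highest-to-lowest library ratio in FPKM of all 31 members. Stat2 was far less steady. On log2 CPM scaled with TMM factors Tap1 varied least, at -0.13 to 0.13 around its mean, against -0.18 to 0.19 for Irf9. Irf9, the DNA-contacting partner of Stat2, was at 11.5, 9.79 and 9.71 FPKM in flox 1 to 3 and at 11.6, 9.32 and 10.7 FPKM in NcoR1ΔHep 1 to 3. Its highest library was 1.24 times its lowest, and the groups overlapped (log2 fold change 0.06, SE 0.19, and 0.06 without NcoR1ΔHep 1). Irf7, the factor that amplifies interferon production and is itself interferon-induced, was at 24.0, 19.7 and 20.7 FPKM in flox and at 24.5, 27.5 and 20.1 FPKM in NcoR1ΔHep. Here NcoR1ΔHep 1 and 2 lay above all flox libraries and NcoR1ΔHep 3 lay among them (log2 fold change 0.19, SE 0.19, or 0.24 without NcoR1ΔHep 1). Stat2, which is required for signalling by type I interferon, was at 8.78, 6.18 and 8.02 FPKM in flox and at 16.9, 6.47 and 4.77 FPKM in NcoR1ΔHep. One library, NcoR1ΔHep 1, was far above the rest, and NcoR1ΔHep 3 was below all others. The log2 fold change of Stat2 was 0.28 (SE 0.40) with that high library and -0.36 without it.

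Among the effectors, the most abundant were Bst2, Ifi27 and Isg15, followed by Usp18. Bst2 (tetherin, which holds budding virus particles at the cell surface) was at 131, 128 and 227 FPKM in flox and at 249, 231 and 120 FPKM in NcoR1ΔHep. The values fell into a higher set (flox 3, NcoR1ΔHep 1 and 2) and a lower set (flox 1, flox 2, NcoR1ΔHep 3) that cut across genotype. Ifi27, a small membrane protein induced by type I interferon, was at 53.6, 44.6 and 46.9 FPKM in flox and at 37.8, 58.4 and 39.7 FPKM in NcoR1ΔHep. The spread of Ifi27 was small in flox, and NcoR1ΔHep held both its highest and its lowest library. The fitted log2 fold changes were 0.29 (SE 0.33) for Bst2 and -0.07 (SE 0.23) for Ifi27, or 0.18 and 0.10 without NcoR1ΔHep 1. Bst2 was at 0.63 without flox 3 and at 0.12 without flox 1.

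Isg15, the ubiquitin-like modifier that is attached to proteins during the antiviral response, was at 19.9, 20.3 and 15.6 FPKM in flox and at 30.6, 16.8 and 23 FPKM in NcoR1ΔHep. NcoR1ΔHep 1 and 3 exceeded every flox library while NcoR1ΔHep 2 did not (log2 fold change 0.35, SE 0.26, or 0.21 without NcoR1ΔHep 1 and 0.55 without NcoR1ΔHep 2). Usp18 encodes the protease that removes Isg15 from proteins and also dampens receptor signalling. Its levels were 13, 9.78 and 8.29 FPKM in flox and 7.01, 8.99 and 9.58 FPKM in NcoR1ΔHep, overlapping between the groups (log2 fold change -0.23, SE 0.25). Single libraries moved that value to -0.05 without NcoR1ΔHep 1, -0.11 without flox 1 and -0.41 without NcoR1ΔHep 3. The 95% intervals of the modifier and its protease both include 0.

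The largest fold change below 0 was that of Rsad2, which encodes viperin, an enzyme that makes a chain-terminating nucleotide against RNA viruses. It was at 6.80, 7.58 and 1.40 FPKM in flox and at 0.867, 1.32 and 3.57 FPKM in NcoR1ΔHep. Flox 1 and flox 2 were above all NcoR1ΔHep libraries, but flox 3 lay below NcoR1ΔHep 3, so the groups overlapped. Means were 5.26 ± 3.37 and 1.92 ± 1.45 FPKM (SD, n = 3 each), and the log2 fold change was -1.37 (SE 0.72, 95% interval -3.03 to 0.29), or -0.98 without NcoR1ΔHep 1. It was -2.32 without NcoR1ΔHep 3 and -0.90 without flox 2. Flox libraries alone differed 5.41-fold in Rsad2.

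The Ifit genes, whose proteins bind foreign or incompletely capped RNA, varied within a genotype in the same manner. Ifit1 was at 6.96, 8.62 and 2.04 FPKM in flox and at 5.60, 2.02 and 9.69 FPKM in NcoR1ΔHep. Each genotype held 1 library near 2 FPKM and others several times higher, and the means were 5.87 ± 3.42 and 5.77 ± 3.84 FPKM. The log2 fold change of 0.03 (SE 0.65) changed sign with the scaling, being -0.03 with total counts alone, and was 0.14 without NcoR1ΔHep 1. Ifit2 was at 2.75, 2.09 and 0.794 FPKM in flox and at 1.22, 1.07 and 2.18 FPKM in NcoR1ΔHep, with flox 3 lowest and overlap between groups (log2 fold change -0.26, SE 0.48, or -0.07 without NcoR1ΔHep 1). Ifit3b was at 3.39, 3.38 and 1.03 FPKM in flox and at 1.64, 0.841 and 2.30 FPKM in NcoR1ΔHep. Again flox 1, flox 2 and NcoR1ΔHep 3 were the 3 highest (log2 fold change -0.65, SE 0.54, or -0.59 without NcoR1ΔHep 1). The value was -0.33 without flox 2, -0.34 without NcoR1ΔHep 2 and -1.13 without NcoR1ΔHep 3. Ifit3 and Ifit3b are near-copies: 51.2% of the 50-base words of Ifit3 transcripts also occur in Ifit3b, so their separate levels are uncertain.

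Oas2 makes the 2-5A messenger that activates RNase L, and it had the largest fold change above 0. Its levels were 0.388, 0.281 and 0.697 FPKM in flox and 2.56, 0.460 and 0.131 FPKM in NcoR1ΔHep. A single library, NcoR1ΔHep 1, carried that difference with 391 counts, against 20 to 105 counts in the other 5. The log2 fold change was 1.14 (SE 0.88) with NcoR1ΔHep 1 and -0.57 without it. The related genes Oas1a, Oas1g and Oas3 showed no such library, with highest-to-lowest ratios of 1.89, 2.10 and 1.57. Oas1a and Oas1g share 57.6% of the 50-base words of Oas1a, so reads could have been split between them.

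Xaf1, a pro-apoptotic partner of the apoptosis inhibitor Xiap, was the only member whose NcoR1ΔHep values all lay above the flox values. It was at 0.926, 1.01 and 1.13 FPKM in flox and at 2.01, 1.20 and 1.23 FPKM in NcoR1ΔHep. The gap between flox 3 and NcoR1ΔHep 2 was small, and NcoR1ΔHep 1 was the highest (log2 fold change 0.53, SE 0.27, or 0.34 without that library). Among all tested genes 2.61% were separated in this direction and 4.95% in the other, so 1 of 31 members each way is near the background.

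The 10 other type I members tested were Ifit3, Oas1a, Oas1g, Oas3, Oasl1, Oasl2, Ifi44, Rtp4 and the sensors Ifih1 (the RNA helicase MDA5) and Zbp1 (a receptor for Z-form nucleic acid that can trigger necroptosis). Their log2 fold changes ran from -0.36 for Oasl1 to 0.25 for Zbp1, and the groups overlapped for all 10. Of these, Oasl1, Ifi44 and Ifih1 varied most, with the highest library at 3.37, 3.06 and 2.68 times the lowest. Ifih1 was at 8.42, 12.9 and 5.76 FPKM in flox and at 6.73, 7.32 and 15.5 FPKM in NcoR1ΔHep, with 1 high library in each genotype.

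The spread between libraries was compared over the classes as a description. The median ratio of the highest to the lowest library was 2.77 over the 6 GTPases and 2.10 over the 23 type I responders, against 2.13 over all genes. Over all 31 members 19 had a ratio above 2, where 55.6% of all genes did, so spread of this size is common in these libraries.

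Of the immunity-related GTPases, Iigp1, which coats parasite vacuoles, was the most abundant by far. It was at 172, 254 and 109 FPKM in flox and at 119, 115 and 268 FPKM in NcoR1ΔHep. Its 2 highest libraries were flox 2 and NcoR1ΔHep 3, one of each genotype (log2 fold change -0.04, SE 0.48, or 0.22 without NcoR1ΔHep 1). Irgm1, a regulator that keeps the effector GTPases off the cell's own membranes, was at 33.1, 27.8 and 22.4 FPKM in flox and at 20.1, 21.4 and 29.7 FPKM in NcoR1ΔHep. The groups overlapped because NcoR1ΔHep 3 exceeded flox 2 and flox 3 (log2 fold change -0.17, SE 0.27, or -0.00 without NcoR1ΔHep 1). Igtp, also called Irgm3 and a regulator of the same kind, was at 17.6, 16.8 and 10.4 FPKM in flox and at 24.0, 9.38 and 16.7 FPKM in NcoR1ΔHep. NcoR1ΔHep held both its highest and lowest library (log2 fold change 0.18, SE 0.35, or -0.08 without NcoR1ΔHep 1). Igtp shares 11.8% of its 50-base words with Irgm2, and Gbp7 shares 10.5% with the predicted gene Gm43802, so some of their reads may be misplaced.

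The 3 guanylate-binding proteins pointed in different directions. Gbp2 was at 4.13, 1.82 and 1.75 FPKM in flox and at 1.54, 1.56 and 1.39 FPKM in NcoR1ΔHep. All NcoR1ΔHep values lay below all flox values, though flox 1 alone was far from the rest. Its log2 fold change was -0.72 (SE 0.34, 95% interval -1.49 to 0.05) and was -0.68 without NcoR1ΔHep 1 and -0.30 without flox 1. Gbp3 was at 3.43, 4.24 and 1.66 FPKM in flox and at 7.03, 2.46 and 6.55 FPKM in NcoR1ΔHep, with NcoR1ΔHep 1 and 3 above all flox libraries and NcoR1ΔHep 2 among them (log2 fold change 0.80, SE 0.47, or 0.66 without NcoR1ΔHep 1 and 0.50 without flox 3). Gbp7 was at 3.50, 5.96 and 1.26 FPKM in flox and at 4.47, 1.65 and 6.59 FPKM in NcoR1ΔHep. Flox 3 and NcoR1ΔHep 2 were low and the other 4 libraries higher, so the log2 fold change of 0.28 (SE 0.64, or 0.33 without NcoR1ΔHep 1) was smaller than the spread inside each genotype.

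Of the 2 genes induced by both kinds of interferon, Irf1, a transcription factor with a GAS match in its promoter, was at 6.0, 4.15 and 4.29 FPKM in flox and at 10.1, 4.74 and 5.45 FPKM in NcoR1ΔHep. NcoR1ΔHep 1 was highest and the other values overlapped (log2 fold change 0.50, SE 0.28, or 0.20 without that library). Tap1, a subunit of the transporter that loads peptides onto MHC class I, was at 6.84, 5.42 and 5.05 FPKM in flox and at 5.79, 5.42 and 5.42 FPKM in NcoR1ΔHep. It was nearly level in all 6 libraries (log2 fold change -0.03, SE 0.19, or 0.01 without NcoR1ΔHep 1).

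**Figure D3:**
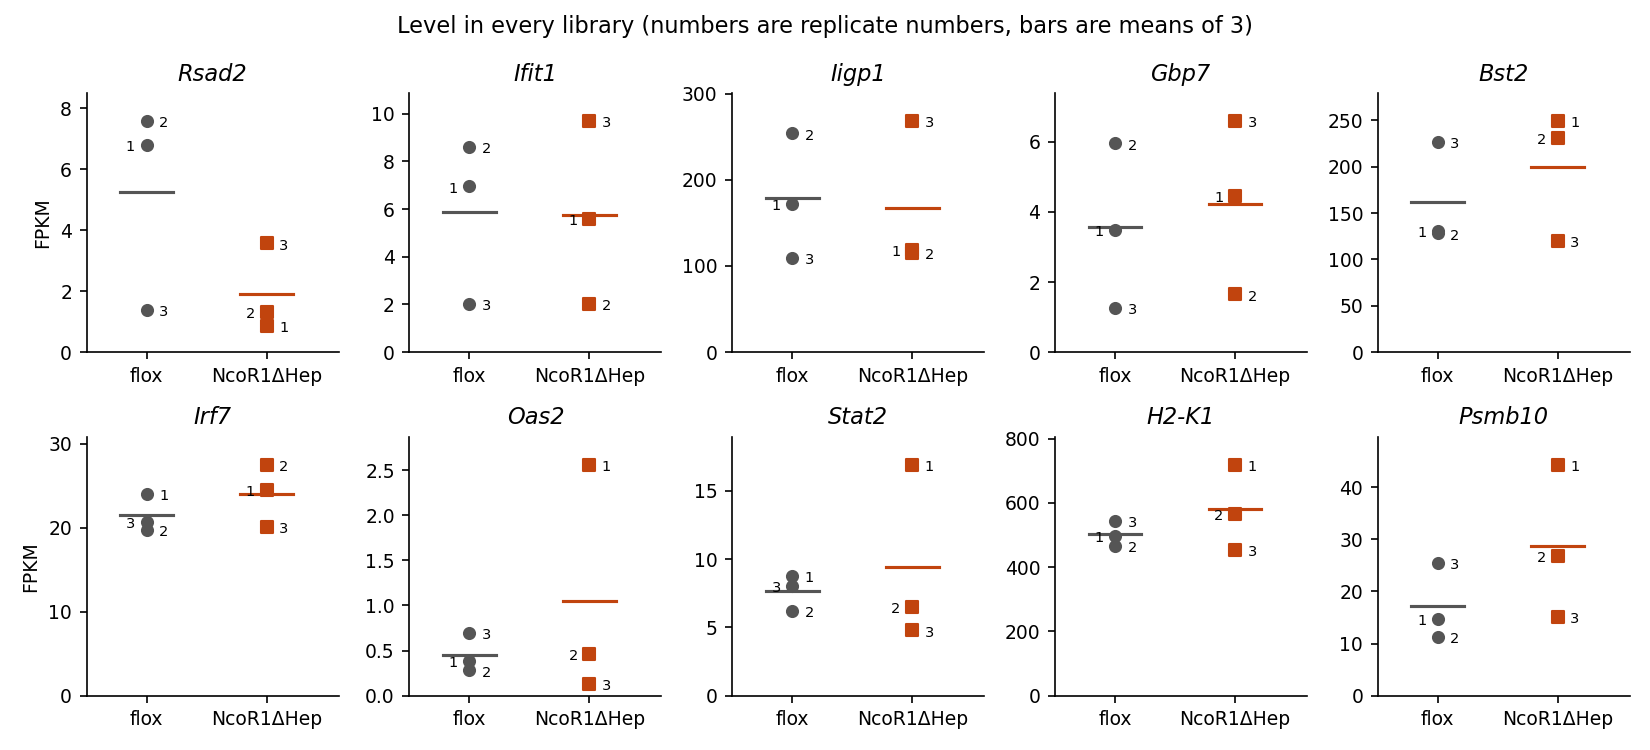
Deposited FPKM (vertical axis, linear from 0) of 8 members, the class I gene H2-K1 and the immunoproteasome gene Psmb10 in each library. Replicate numbers stand beside the points, and bars mark the mean of 3. Rsad2, Ifit1, Iigp1 and Gbp7 each have high and low libraries inside both genotypes, while Oas2 and Stat2 have 1 high library, NcoR1ΔHep 1.

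After these values had been seen, the libraries were compared across genes, and the following counts are a description without a test. For 10 of the 31 members (32.3%) the 3 highest libraries in FPKM were flox 1, flox 2 and NcoR1ΔHep 3, a set that holds both genotypes. Of all tested genes 12.6% had those 3 highest. The 10 were Ifit1, Ifit2, Ifit3b, Usp18, Oasl1, Rsad2, Ifi44 and Ifih1 among type I responders (8 of 23, 34.8%) and Irgm1 and Iigp1 among GTPases (2 of 6, 33.3%). With TMM-scaled values there were 12 of 31 (38.7%, against 13.3% of all genes), Ifit3 and Tap1 being added. The opposite set, flox 3, NcoR1ΔHep 1 and NcoR1ΔHep 2, was highest for 2 members (6.45%), Bst2 and Oas2, and for 15.8% of all genes.

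The mean level of each class was lowest in flox 3 and NcoR1ΔHep 2, while NcoR1ΔHep 1 lay slightly above the mean of the 6 libraries. NcoR1ΔHep 1 was also the highest library in FPKM for 11 of the 31 members, 8 of them type I responders. As log2 CPM minus the mean of the 6 libraries, the type I responders averaged 0.11, 0.21 and -0.24 in flox 1 to 3 and 0.02, -0.24 and 0.13 in NcoR1ΔHep 1 to 3. The GTPases averaged 0.15, 0.42 and -0.63 in flox and 0.06, -0.57 and 0.56 in NcoR1ΔHep. Flox 3 and NcoR1ΔHep 2 were the 2 lowest libraries for both classes, and remained so when levels were scaled by total counts alone. On that scale the type I mean of NcoR1ΔHep 1 (0.12) was above those of flox 2 (0.11) and NcoR1ΔHep 3 (-0.01). The largest distance of a class mean from 0 was 0.63 for the 6 GTPases and 0.24 for the 23 type I responders. Those distances do not compare the spread of single genes, because opposed patterns, as in Oas2 and Rsad2, offset each other in a class mean. Single genes reached 2.30 among type I responders (Oas2 in NcoR1ΔHep 1) and -1.36 among GTPases (Gbp7 in flox 3). Mitochondrial shares were 6.16%, 8.80% and 4.50% in flox 1 to 3 and 6.67%, 5.77% and 10.4% in NcoR1ΔHep 1 to 3, and Kupffer cell markers (9 of 9 with counts in every library) summed to 286, 189 and 299 FPKM and to 217, 320 and 125 FPKM. Both measures set flox 2 and NcoR1ΔHep 3 apart from flox 3 and NcoR1ΔHep 2, but flox 1 did not go with flox 2 and NcoR1ΔHep 3. Its Kupffer cell sum was close to that of flox 3, and its mitochondrial share was below that of NcoR1ΔHep 1. Single Kupffer cell markers differed too. Timd4 (4.0 and 3.85 FPKM) and Adgre1 (5.66 and 5.48 FPKM) were nearly level in flox 2 and flox 3, while the others were lower in flox 2. The part of both measures in the library pattern was not tested.

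**Figure D4:**
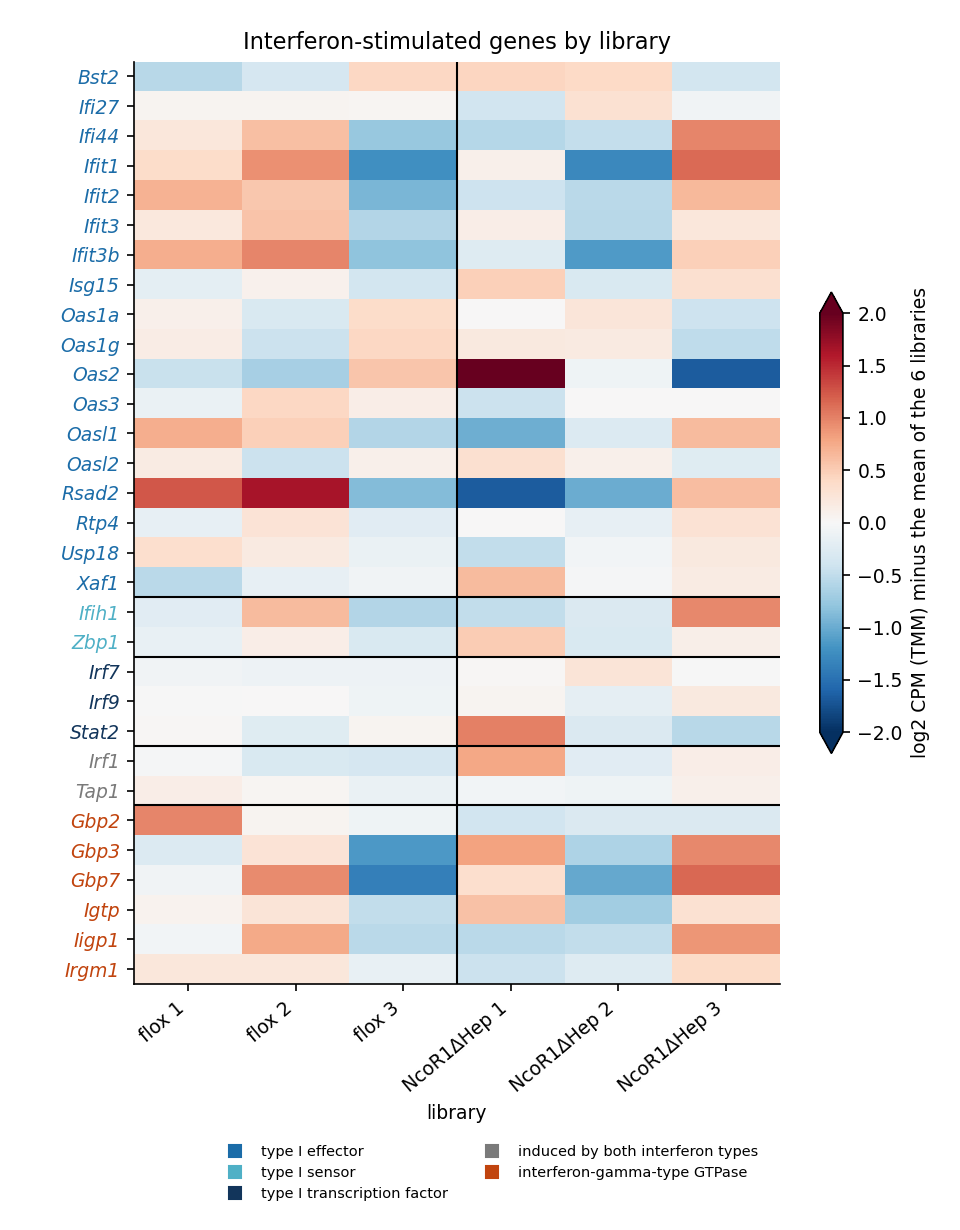
TMM-scaled log2 CPM of each of the 31 members in each library minus the gene's mean over the 6 libraries (colour, clipped at 2), grouped by class with the genotypes split by the vertical line. Rsad2, Ifit1, Ifit2 and Ifit3b are above their means in flox 1, flox 2 and NcoR1ΔHep 3, and Oas2 and Stat2 are highest in NcoR1ΔHep 1.

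Upstream of these genes, the 3 interferon genes that were analysed were at or near 0. Ifng had 1 count in flox 1, 1 count in NcoR1ΔHep 1 and 0 in the other 4 libraries, and Ifnb1 and Ifnk had 0 counts in all 6, which allows up to 3 counts in each. The remaining 10 interferon genes of the list were not analysed here. Of 14 genes for receptors and JAK-STAT signalling 12 were tested, 6 on each side of 0 (median log2 fold change -0.07, or -0.06 without NcoR1ΔHep 1), and none passed the edgeR threshold. The 2 genes of that group with the smallest p were the interferon-gamma receptor chain Ifngr2 (log2 fold change -0.40, SE 0.22) and the kinase Jak1 (-0.38, SE 0.26). Without NcoR1ΔHep 1, they were -0.29 and -0.15. Of the 12, only Jak1 had every NcoR1ΔHep value below every flox value in FPKM, as did 4.95% of all tested genes.

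Of 14 nucleic acid sensing genes tested, 4 were above 0 and 10 below (median log2 fold change -0.09, or -0.10 without NcoR1ΔHep 1), and none passed. On the log2 scale, the fold change was -0.47 (SE 0.29) for Tlr7, an endosomal sensor of single-stranded RNA, and -0.31 (SE 0.20) for Tbk1, the kinase that activates Irf3. They were -0.35 and -0.19 without NcoR1ΔHep 1. For both, every NcoR1ΔHep value was below every flox value in FPKM, as in 4.95% of all tested genes.

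Further type I responders outside the 33 gave a similar picture. Of 26 tested, 11 were above 0 and 15 below, with a median log2 fold change of -0.08 (0.02 without NcoR1ΔHep 1), 1 unadjusted edgeR p under 0.05 and none after adjustment. Parp14, an ADP-ribosyltransferase (-0.50, SE 0.22), and Samhd1, which depletes nucleotides that viruses need (-0.47, SE 0.21), were lower in every NcoR1ΔHep library than in any flox library, and stood at -0.51 and -0.43 without NcoR1ΔHep 1. Of the 26, 3 were separated in this direction (with Ifi204) and 1 in the other (Ube2l6), against 4.95% and 2.61% of all tested genes. The pattern of flox 1, flox 2 and NcoR1ΔHep 3 as the 3 highest held in 9 of the 26 (34.6%).

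Among interferon-gamma-type GTPases outside the list of members, Tgtp1 and Tgtp2 had the smallest p. Of 14 tested, 3 were above 0 and 11 below, and the median log2 fold change was -0.58 (-0.48 without NcoR1ΔHep 1), but none had an edgeR p under 0.05 before or after adjustment. Tgtp1 and Tgtp2, which act on pathogen vacuoles, had log2 fold changes of -1.25 (SE 0.62) and -1.32 (SE 0.61), or -0.95 and -2.10 without NcoR1ΔHep 1. As near-identical copies, their separate levels are uncertain. Tgtp1 was at 4.01, 2.86 and 0.818 FPKM in flox and at 0.627, 0.735 and 1.67 FPKM in NcoR1ΔHep. As in Rsad2, flox 3 lay among the NcoR1ΔHep values. The 3 highest libraries were flox 1, flox 2 and NcoR1ΔHep 3 in 8 of the 14 (57.1%), among them Irgm2, Ifi47, Gbp6 and Gbp10.

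MHC class I and immunoproteasome genes, taken as 1 list that interferon also induces, mostly had flox 3, NcoR1ΔHep 1 and NcoR1ΔHep 2 as their highest libraries. Of 15 MHC class I and immunoproteasome genes, 14 were above 0 and 1 below, with a median log2 fold change of 0.38 that became 0.18 without NcoR1ΔHep 1. One, the immunoproteasome subunit Psmb9 (0.65, SE 0.28, or 0.36 without that library), had an unadjusted edgeR p under 0.05, and none passed after adjustment. Psme1, a proteasome activator subunit, was at 0.55 (SE 0.27, or 0.32 without NcoR1ΔHep 1). NcoR1ΔHep 1 was the highest library for 13 of the 15. In 10 of the 15 (66.7%, against 15.8% of all tested genes) the 3 highest libraries were flox 3, NcoR1ΔHep 1 and NcoR1ΔHep 2. Bst2 was also highest in that set. The 10 were H2-K1, H2-D1, H2-T23, Tap2, Tapbp, Psmb8, Psmb9, Psmb10, Psme1 and Psme2. B2m, H2-Q4, H2-Q7, Nlrc5 and Erap1 were outside this set. Erap1 had the opposite order, with flox 1, flox 2 and NcoR1ΔHep 3 as its 3 highest libraries. With TMM-scaled values there were also 10, with H2-Q4 in and Psmb9 out. Tap1, a member that works beside these genes, was not among the 10.

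For MHC class II genes (7 of 7 tested) the median was 0.39 on the log2 scale with all libraries and -0.33 without NcoR1ΔHep 1. H2-Aa (0.65, SE 0.50) and H2-Eb1 (0.63, SE 0.47) became -0.16 and -0.03 without it. That library also had the highest sum of conventional dendritic cell markers, 1.11 FPKM against 0.153 to 0.436 FPKM in the other 5, with all 3 markers counted in every library. The part of those markers in the high Oas2, Stat2 and Irf1 values of NcoR1ΔHep 1 was not tested. Among chemokines, Cxcl9 was at -0.36 (SE 0.36) and Ccl5 at 0.29 (SE 0.54), and 0 of 3 tested passed. Without NcoR1ΔHep 1 they were at -0.56 and -0.39, so the sign of Ccl5 turned, and the median of the 3 went from 0.09 to -0.39.

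**Figure D5:**
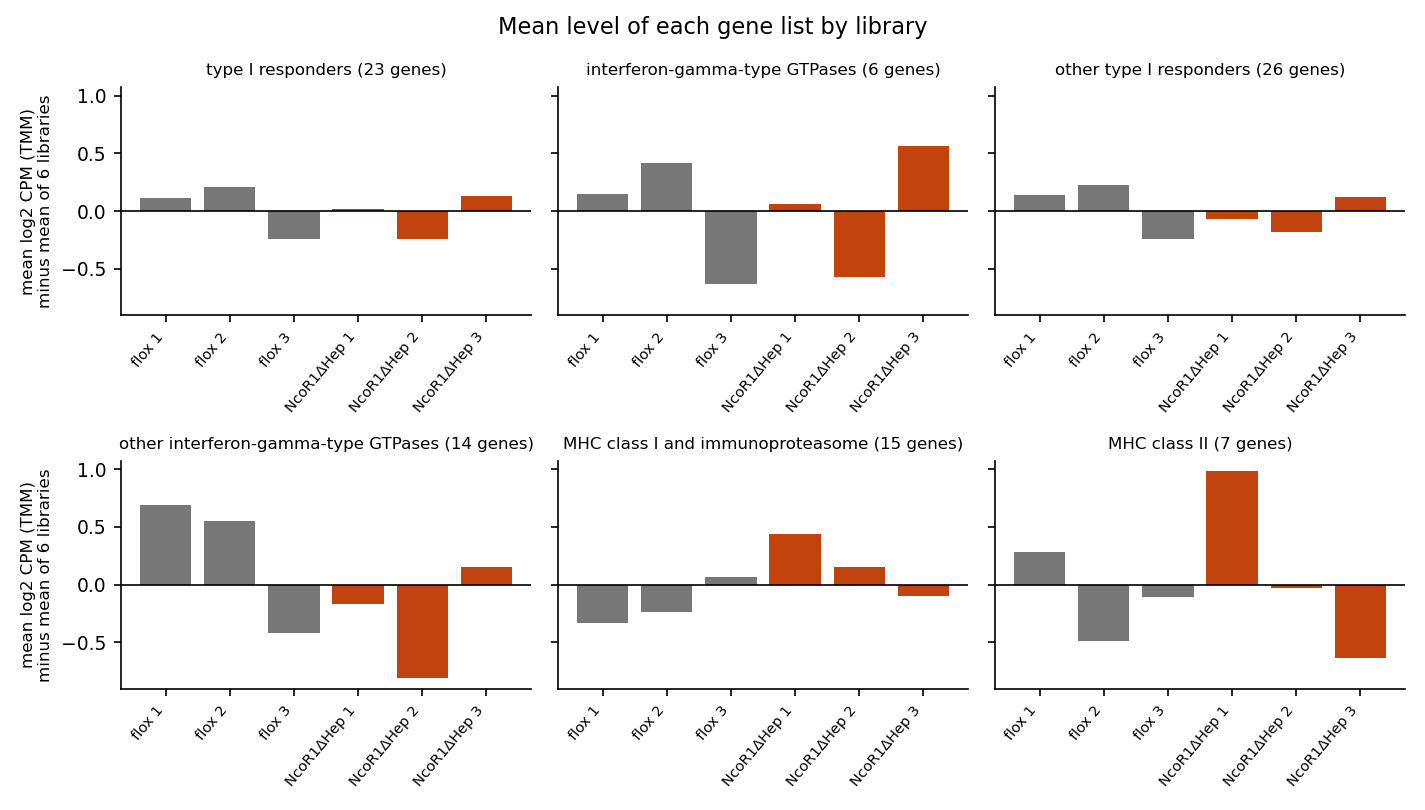
Mean TMM-scaled log2 CPM of each gene list in each library minus its mean over the 6 libraries (vertical axis, log2 units; grey flox, orange NcoR1ΔHep). Type I responders and both GTPase lists are lowest in flox 3 and NcoR1ΔHep 2. MHC class I and immunoproteasome genes are lowest in flox 1 and flox 2, and MHC class II genes are highest in NcoR1ΔHep 1.

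Markers of other cells that produce or answer interferon were compared in the same way. T and NK cell markers, 8 of 8 counted in every library, summed to 2.08 to 3.07 FPKM in flox and 1.69 to 3.60 FPKM in NcoR1ΔHep. Plasmacytoid dendritic cell markers summed to 0.0593 to 0.510 FPKM and 0.118 to 0.179 FPKM, with Ccr9 and Cox6a2 at 0 in some libraries. Neutrophil and monocyte markers summed to 4.10 to 23.1 FPKM and 7.73 to 12.7 FPKM, highest in flox 3, with Ly6g and Retnlg at 0 in some libraries. Sinusoidal endothelial markers summed to 48 to 131 FPKM in flox, highest in flox 1, and 32.3 to 79.4 FPKM in NcoR1ΔHep, lowest in NcoR1ΔHep 3. Flox 1 was the highest and NcoR1ΔHep 3 the lowest library for all 8. In mean log2 CPM minus the mean of the 6 libraries, flox 2 (-0.27) lay below NcoR1ΔHep 1 (0.19). All 8 had log2 fold changes below 0, with a median of -0.72 (-1.11 without NcoR1ΔHep 1). Kdr and Pecam1 had an unadjusted edgeR p under 0.05, as 3.35% of all tested genes did, but none passed after adjustment. Those 2 are named because of their values. The part of these cell types in the levels of the members was not tested.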

How the data were processed

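The authors deposited whole-number read counts per gene symbol and FPKM values for the same genes and 6 libraries. In the files, FPKM equals the count divided by a gene length and by the library's total. Per the labels' protocols, total RNA went into a SMARTer mRNA kit. The submitters' processing notes name GRCm38, mm10 and hg38 without their roles. No source used here names an aligner, a counting program or a strand setting, so overlapping and near-identical genes are uncertain.

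Genes were filtered with filterByExpr (minimum count 10, minimum total 15), leaving 13205 genes with 99.95% of counts. The deposited counts were scaled with TMM factors, and the genotypes were compared by edgeR 4.0.16 (R 4.3.3), quasi-likelihood, two-sided, NcoR1ΔHep over flox, Benjamini-Hochberg over all genes, threshold 0.05. FPKM was used for levels. Libraries held 36975231 to 38470468 counts each, with 3 libraries a group. P-values measure spread between libraries, which may be technical.

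The members and lists were chosen with earlier results of these data known, so no test was run over a list. Members given in every library were all GTPases, transcription factors and genes induced by both interferons, plus the 4 effectors or sensors with the highest level, the 4 with the smallest p and the 4 with the largest library ratio at a mean of at least 1 FPKM. For other lists the 2 genes with the smallest p and counted interferon genes are named. A further gene of the naming rule is not reported here. Others named with a library pattern were chosen after values were seen. Motifs were searched in RefSeq promoters (GRCm38.p6). Alternatives were DESeq2 1.42.0, limma 3.58.1 (voom, and log2 of FPKM plus 1 or 0.1), other scalings and filters, a robust fit, a replicate block and each library left out. The edgeR step was tested on simulated data.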

Additional observations from a re-analysis of the deposited data

How the results depend on the processing

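No member was called under any of the 18 alternatives. Over all genes the count of calls was 0 except with DESeq2 (5) and limma on log2(FPKM + 1) without a filter (8), and it was 0 with each library left out. At an unadjusted p under 0.05, 1 member (Rsad2) was called without a count filter, against 691 of 20338 genes. With a library left out, 2 members were called without flox 3 (against 743 of 13531 genes), NcoR1ΔHep 2 (770 of 13511) or NcoR1ΔHep 3 (932 of 13564). The number was 1 without flox 2 (357 of 13538) and 0 without flox 1 (105 of 13469) or NcoR1ΔHep 1 (325 of 13391). Same-numbered deviations from the group mean correlated at 0.018, -0.321 and -0.462 over 13205 genes. Of the 6 libraries only flox 1 correlated best with its own number, at 0.018 against 0.015 with NcoR1ΔHep 2. Deviations within a group are tied to each other, so these values do not show whether a number marks a shared litter, day or batch. With the replicate block edgeR called 0 genes and 0 members, and 175 genes had an unadjusted p under 0.05 in place of 443.

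Of the 21 members given in every library, 11 kept the sign of the log2 fold change under every alternative. Ifit1 was at 0.03 and became -0.03 with total counts, -0.05 with voom and -0.07 with the replicate block. With limma it was -0.04 on log2(FPKM + 1), filtered or not, and -0.05 on log2(FPKM + 0.1). Tap1 became 0.00 with upper-quartile factors. With 1 library left out the log2 fold change ranged from -0.04 to 0.15 for Irf9, -0.36 to 0.54 for Stat2, -0.10 to 0.04 for Tap1, -0.08 to 0.46 for Igtp, -0.68 to 0.39 for Iigp1, -0.32 to 0.98 for Gbp7, -0.27 to 0.10 for Ifi27, -0.57 to 1.65 for Oas2, -0.70 to 0.52 for Ifit1 and -0.75 to 0.03 for Ifit2. The sign changed without NcoR1ΔHep 1 for Stat2 (-0.36), Oas2 (-0.57), Ifi27 (0.10), Igtp (-0.08, and -0.02 without flox 3), Iigp1 (0.22, with 0.39 without flox 2 and 0.19 without NcoR1ΔHep 2) and Tap1 (0.01, with 0.04 without flox 1 and 0.00 without NcoR1ΔHep 2). It changed without NcoR1ΔHep 3 for Irf9 (-0.04), Gbp7 (-0.32, and -0.13 without flox 3) and Ifit1 (-0.70, and -0.37 without flox 3), and without flox 1 for Ifit2 (0.03). With 1 library left out the class median ranged from -0.05 to 0.10 for type I responders and from -0.39 to 0.36 for GTPases. Under the other alternatives it ranged from -0.08 (antiviral effectors only; -0.07 with the replicate block) to 0.05 for type I responders and from -0.02 to 0.09 for GTPases. The cause was not tested. Counts of libraries in a shared order, also on the TMM scale, were added after the data were seen. Groups of 3 libraries limit the precision, and the effect of depth was not tested.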
